A study of Mus musculus with 6 samples.

Results

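Natural killer (NK) cells and other innate lymphoid cells are represented here by 10 genes, chosen by name: the granule proteins Gzma, Gzmb and Prf1, the surface receptors Klrb1c, Klrd1, Klrk1 and Ncr1, and the transcription factors Eomes, Tbx21 and Rora. All 10 were among the 20097 mouse genes listed, and all 10 passed the filter on low values that left 15410 genes for testing. RNA was sequenced from mouse bone marrow cells sorted as c-Kit+, a population that bears the stem cell factor receptor and holds mainly blood progenitors. The comparison is between 3 libraries of genotype WT and 3 of genotype Runx1 KO, a knockout of the gene for the transcription factor RUNX1. The labels give no treatment, strain, age, allele, Cre or number of animals for either group. Because they do not say that the libraries come from separate animals, the p-values measure only the spread between these libraries, which may be technical.

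NK cells kill infected or transformed cells by releasing granules, in which perforin opens the way for granzymes, serine proteases that trigger death of the target. Activating receptors such as NKG2D and NKp46 and inhibitory receptors that read class I molecules set the decision to kill. The T-box factors EOMES and T-bet direct NK cell maturation and RORα supports group 2 innate lymphoid cells. Cytotoxic T cells use several of the same genes, and mature NK cells carry little or no c-Kit.

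The targeted transcript did not fall. Runx1 had 3031, 2799 and 3497 normalised reads (reads scaled by the size factor of their library) in WT and 6648, 6720 and 5830 in the libraries labelled Runx1 KO, a log2 change of 1.04 (SE 0.10, limma adjusted p 0.00163). Gene-level values cannot show whether a part of the transcript was lost, so Runx1 KO below means the libraries so labelled. Kit, the receptor used for the sort, was abundant in all 6 libraries, at 7979 to 8471 normalised reads in WT and 11507 to 13684 in Runx1 KO.

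Runx1 KO replicate 1 stood apart from the other libraries of its group for these genes. It lay below all 3 WT libraries for 3 of the 10, whereas replicates 2 and 3 each did so for 9 of 10. Among all tested genes the shares were alike, at 34.6%, 35.6% and 36.3% for Runx1 KO replicates 1 to 3. Replicate 1 was nonetheless nearer to WT over all tested genes, by Pearson correlation of log2 values. It correlated with the WT libraries at 0.958, 0.968 and 0.970, against 0.934 to 0.955 for replicates 2 and 3. Its correlation with replicates 2 and 3 was 0.982 and 0.979, and theirs with each other was 0.990. The summed level of the 10 genes was 1226, 1052 and 1202 normalised reads in WT, 1004 in Runx1 KO replicate 1, and 320 and 316 in replicates 2 and 3. Depth was 25894968 to 26793380 recovered reads in WT and 23297526, 24906754 and 24416078 in Runx1 KO. The changes of the 10 genes and the counts of calls in each list are therefore given with and without replicate 1. That library was singled out from the values of these same 10 genes. Calls and adjusted p-values without it are therefore descriptive and give no support for a fall. All 25 genes named as called from the 5 lists of NK genes below were called in the same direction without it. They were named because they passed with replicate 1 included, so this is no independent check. The part of replicate 1 in the results was not otherwise tested.

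**Figure D1:**
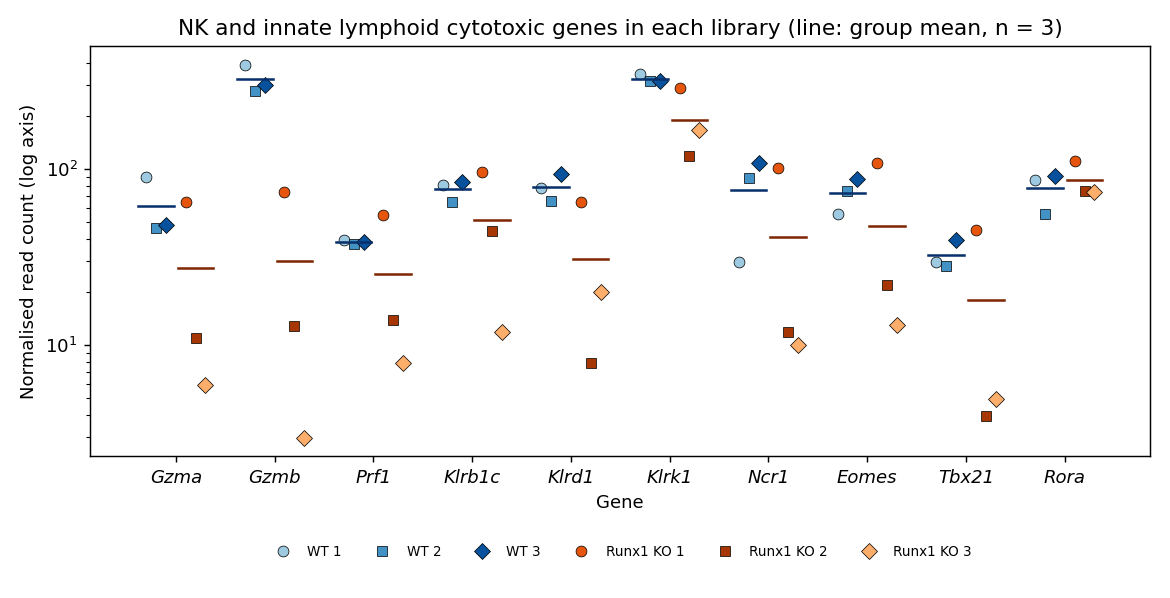
Normalised read count (vertical log axis) of each of the 10 genes (horizontal axis) in the 3 WT libraries (blue) and the 3 Runx1 KO libraries (orange and brown), with horizontal lines at the group means (n = 3). Runx1 KO replicates 2 and 3 lie below all WT libraries for every gene except Rora, while replicate 1 does so for Gzmb, Klrd1 and Klrk1.

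With all 6 libraries, 1 of the 10 genes passed the test, Gzmb, which fell. The test was limma with Benjamini-Hochberg adjustment over all tested genes and a threshold of 0.05, and it called 11.3% of all tested genes lower, 10.6% higher and 21.9% in either direction, so the count of 1 in 10 is near the background. Scaled to equal library totals, the calls over all genes split into 2383 higher and 1372 lower, against 1631 and 1739, and still held Gzmb alone of the 10. The log2 change, Runx1 KO minus WT on the scale of log2(normalised read count + 1), was negative for 9 of the 10 and had a median of -1.31, beside -0.0042 for all tested genes. Without Runx1 KO replicate 1 the same test called 8 of the 10 lower, with a median of -2.26, where it called 12.4% of all tested genes lower. Because that library was picked from the values of these genes, the 8 calls are descriptive only. The test called 0 of 10 without Runx1 KO replicate 2 (4.65% of all tested genes lower) and 1 without replicate 3 (5.75%). It called 0 without WT replicate 1, 2 or 3 (8.02%, 7.75% and 7.46%). At an unadjusted p under 0.05 limma had 3 of the 10 lower with all libraries, beside 19.3% of all tested genes, and 9 of the 10 without Runx1 KO replicate 1, beside 19.8%. It had 1 without Runx1 KO replicate 2 and 1 without replicate 3 (14.6% and 15.1% of all tested genes), and 1, 2 and 2 without WT replicates 1, 2 and 3 (17.1%, 17.2% and 17.1%). In bulk RNA, fewer cells of a type in the sort and less RNA per cell cannot be told apart.

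**Figure D2:**
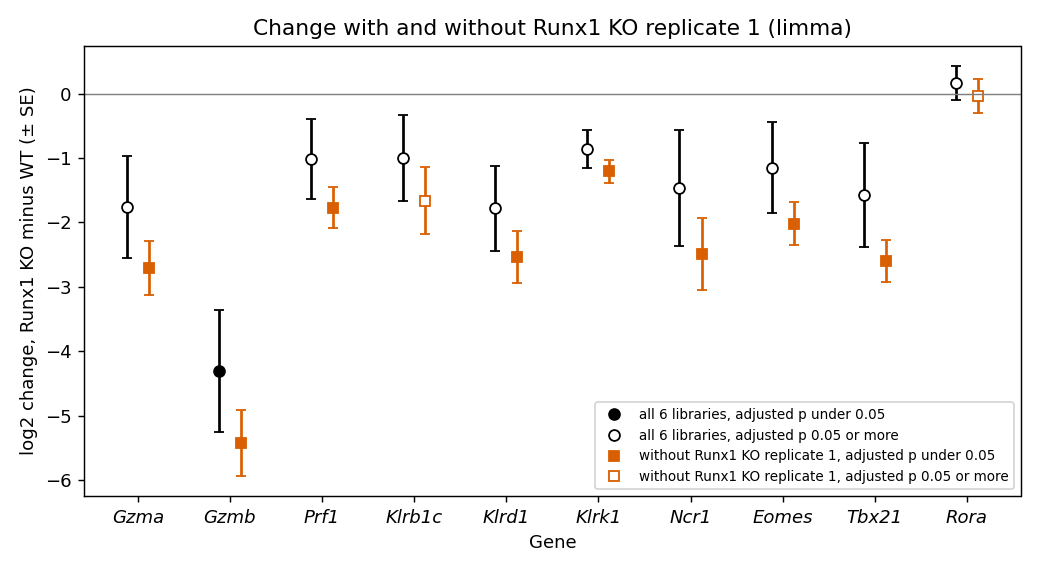
Log2 change from WT to Runx1 KO with its standard error (vertical axis) for each of the 10 genes, from all 6 libraries (black circles) and without Runx1 KO replicate 1 (orange squares); filled symbols passed an adjusted p of 0.05 in limma. With all libraries Gzmb is the filled symbol, at -4.31, and without replicate 1 the symbols of 8 genes are filled and those of Klrb1c and Rora are open.

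Gzmb (ENSMUSG00000015437; GRCm38 chromosome 14, 56258838 to 56262260, minus strand) encodes granzyme B, the protease that cleaves caspases in the target cell. It had 390, 276 and 298 normalised reads in WT and 74.3, 12.9 and 2.98 in Runx1 KO replicates 1 to 3. Every Runx1 KO library was below every WT library, and replicate 3 held 3 reads. The mean was 322 ± 60.1 in WT and 30.05 ± 38.6 in Runx1 KO (SD, n = 3), 10.7-fold lower, with a log2 change of -4.31 (SE 0.94) and a limma adjusted p of 0.0200. The edgeR quasi-likelihood test on recovered reads gave an adjusted p of 0.0300. The call did not hold without every library: the limma adjusted p was 0.0529, 0.0570 and 0.0553 without WT replicates 1, 2 and 3, and 0.0728 without Runx1 KO replicate 2. It was 0.00235 and 0.0327 without Runx1 KO replicates 1 and 3, and the log2 change ran from -5.42 to -3.30 over these 6 fits.

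Gzma (ENSMUSG00000023132; chromosome 13, 113093825 to 113100981, minus strand) encodes granzyme A, a tryptase-like protease of the same granules. It had 90.0, 46.4 and 48.0 normalised reads in WT and 64.9, 10.9 and 5.97 in Runx1 KO. Replicate 1 was within the WT values and the other Runx1 KO libraries were below them all. The log2 change was -1.76 (SE 0.79, limma adjusted p 0.152), and -2.71 (SE 0.41, adjusted p 0.00787) without Runx1 KO replicate 1.

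Prf1 (ENSMUSG00000037202; chromosome 10, 61297833 to 61304680, plus strand) encodes perforin, the pore-forming protein. Its WT values were close together at 39.6, 37.3 and 38.4 normalised reads, and the Runx1 KO libraries had 54.4, 13.9 and 7.96. Replicate 1 was above the whole WT range and the others were below it. The log2 change was -1.02 (SE 0.62, limma adjusted p 0.275), and -1.77 (SE 0.32, adjusted p 0.0125) without Runx1 KO replicate 1. The granule genes thus differed in that library, which stood at 23.1% of the WT mean for Gzmb, 106% for Gzma and 142% for Prf1, a contrast within a single library that has no test.

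The starts of the genes were searched for the core letters of RUNX motifs, since RUNX1 is the factor named by the genotype. In the 250 bases before the RefSeq start (GRCm38.p6; 9 of the 10 genes matched, with no entry for Klrd1), TGTGGT or TGCGGT on either strand occurred in 6 of 9: Gzmb, Gzma, Prf1, Ncr1, Klrb1c and Klrk1. Among 32851 windows of that length at mouse gene starts, 18.6% held TGTGGT or TGCGGT, and 14.0% held TGTGGT, the form found in all 6. The windows of Eomes, Tbx21 and Rora held no match. The T-box letters GGTGTGA were in 0 of the 9 windows on either strand and in 3.33% of all windows. A T-box match and a RUNX match can overlap by a few letters, and a match is a description of the letters alone. The windows of the 3 granule genes and of Ncr1, the receptor most restricted to NK cells, are shown because Gzmb and Ncr1 hold 2 matches each and Gzma and Prf1 are the granule partners of Gzmb. Each runs 5′ to 3′ on the strand of the gene up to the base before the start, with RUNX letters (TGTGGT, or ACCACA for the other strand) in capitals: Gzmb at chr14:56262335-56262584 (minus), Gzma at chr13:113100982-113101231 (minus), Prf1 at chr10:61297586-61297835 (plus) and Ncr1 at chr7:4337465-4337714 (plus, the first of its 2 listed starts).
Gzmb: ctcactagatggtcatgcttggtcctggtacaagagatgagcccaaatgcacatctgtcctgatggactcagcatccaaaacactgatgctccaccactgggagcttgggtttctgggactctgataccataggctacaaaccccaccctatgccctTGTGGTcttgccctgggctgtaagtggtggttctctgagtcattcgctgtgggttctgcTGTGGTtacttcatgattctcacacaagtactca
Gzma: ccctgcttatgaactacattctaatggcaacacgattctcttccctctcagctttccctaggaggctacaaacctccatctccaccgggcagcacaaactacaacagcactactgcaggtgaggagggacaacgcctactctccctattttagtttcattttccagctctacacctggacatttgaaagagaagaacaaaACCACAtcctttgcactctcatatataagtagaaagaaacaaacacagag
Prf1: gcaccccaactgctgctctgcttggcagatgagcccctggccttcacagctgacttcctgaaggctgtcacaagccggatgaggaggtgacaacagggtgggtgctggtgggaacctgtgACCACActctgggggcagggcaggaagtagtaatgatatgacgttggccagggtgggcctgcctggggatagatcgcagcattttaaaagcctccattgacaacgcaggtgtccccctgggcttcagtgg
Ncr1: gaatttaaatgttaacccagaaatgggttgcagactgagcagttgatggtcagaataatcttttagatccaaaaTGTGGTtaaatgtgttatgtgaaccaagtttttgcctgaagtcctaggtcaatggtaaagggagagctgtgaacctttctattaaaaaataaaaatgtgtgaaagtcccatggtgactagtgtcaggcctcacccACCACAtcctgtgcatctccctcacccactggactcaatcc
The matches begin 93 and 34 bases before the start in Gzmb, 50 in Gzma, 130 in Prf1, and 176 and 41 in Ncr1. All 6 genes with a match, and Eomes and Tbx21 without one, were below every WT library in Runx1 KO replicates 2 and 3. Rora, also without a match, was not. Any bearing of the matches on the changes was not tested.

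Granzyme B lies in a stretch of chromosome 14 with other granule protease genes, which did not all move with it (listed genes within 300.0 kb, a window chosen after values had been seen). Mcpt8, a basophil protease gene 174 kb away, had 1846, 1452 and 1687 normalised reads in WT and 138, 139 and 120 in Runx1 KO, a log2 change of -3.64 (SE 0.12, limma adjusted p 1.11e-04), and -3.67 (SE 0.13) without replicate 1. All 3 Runx1 KO libraries were low for Mcpt8, replicate 1 no less than the others. Ctsg, the cathepsin G gene of neutrophil precursors, had 20592 ± 1643 normalised reads in WT and 19822 ± 514 in Runx1 KO (SD, n = 3) and did not pass (log2 change -0.05, SE 0.07, limma adjusted p 0.629, and 0.563 without replicate 1). Gzmc, 24.2 kb from Gzmb, had 2.97, 5.05 and 1.92 normalised reads in WT and 0 in all Runx1 KO libraries, where a count of 0 allows up to 3 reads, and was not tested. Near Gzma on chromosome 13, Gzmk, a granzyme gene of memory T cells and some NK cells, had 11.9, 20.2 and 3.84 normalised reads in WT and 58.6, 7.93 and 1.99 in Runx1 KO. Its highest value was in Runx1 KO replicate 1 and its lowest in replicate 3.

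Ncr1 (ENSMUSG00000062524; chromosome 7, 4337724 to 4345164, plus strand) encodes the activating receptor NKp46. It had 29.7, 88.8 and 108 normalised reads in WT and 100.4, 11.9 and 9.95 in Runx1 KO. WT replicate 1 was low for its group, and Runx1 KO replicate 1 was within the WT values. For Ncr1 the log2 change was -1.47 (SE 0.90, limma adjusted p 0.280), and -2.50 (SE 0.56, adjusted p 0.0250) without Runx1 KO replicate 1.

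Klrd1 (ENSMUSG00000030165; chromosome 6, 129591782 to 129598775, plus strand) encodes CD94, the partner chain of the NKG2 receptors. It had 78.2, 65.6 and 93.0 normalised reads in WT and 64.9, 7.93 and 19.9 in Runx1 KO. The groups did not overlap, although Runx1 KO replicate 1 was just under the lowest WT library. The log2 change was -1.78 (SE 0.66, limma adjusted p 0.0949), and -2.53 (SE 0.40, adjusted p 0.00877) without Runx1 KO replicate 1.

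Klrk1 (ENSMUSG00000030149; chromosome 6, 129610323 to 129623864, minus strand) encodes the activating receptor NKG2D. It had 346, 315 and 314 normalised reads in WT and 286, 118 and 166 in Runx1 KO, and the groups did not overlap. Its log2 change was the smallest in size of the negative ones, at -0.87 (SE 0.30, limma adjusted p 0.0770). Without Runx1 KO replicate 1 it was -1.21 (SE 0.18, adjusted p 0.00689).

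Klrb1c (ENSMUSG00000030325; chromosome 6, 128778485 to 128789215, minus strand) encodes NK1.1, the antigen by which NK cells are stained in several mouse strains. It had 81.1, 64.6 and 84.4 normalised reads in WT and 96.2, 44.6 and 11.9 in Runx1 KO. Replicate 1 was above all WT libraries and the others were below them. Its log2 change, -1.001 (SE 0.66), had a limma adjusted p of 0.314, and without Runx1 KO replicate 1 it was -1.67 (SE 0.52, adjusted p 0.0643), still short of the threshold. Groups that did not overlap, with Runx1 KO below WT, were seen for 3 of the 10 genes, Gzmb, Klrd1 and Klrk1, and for 21.9% of all tested genes.

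Eomes (ENSMUSG00000032446; chromosome 9, 118478212 to 118486132, plus strand) encodes the T-box factor of conventional NK cells. It had 55.4, 74.7 and 87.3 normalised reads in WT and 108, 21.8 and 12.9 in Runx1 KO. Replicate 1 was the highest of all 6 libraries and replicates 2 and 3 were the lowest. Its log2 change was -1.15 (SE 0.71, limma adjusted p 0.278), and -2.02 (SE 0.33, adjusted p 0.00945) without Runx1 KO replicate 1.

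Tbx21 (ENSMUSG00000001444; chromosome 11, 97098071 to 97115331, minus strand) encodes T-bet, which drives interferon-γ production and late NK maturation. It had 29.7, 28.3 and 39.3 normalised reads in WT and 45.0, 3.96 and 4.97 in Runx1 KO. As for Eomes, replicate 1 was the highest of all 6 libraries and replicates 2 and 3 were the lowest. For Tbx21 the log2 change was -1.58 (SE 0.81, limma adjusted p 0.200), and -2.60 (SE 0.32, adjusted p 0.00443) without Runx1 KO replicate 1.

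Rora (ENSMUSG00000032238; chromosome 9, 68653786 to 69388246, plus strand), the gene of the nuclear receptor RORα, was the exception among the 10. It had 86.1, 55.5 and 91.1 normalised reads in WT and 111, 74.3 and 73.6 in Runx1 KO. The groups overlapped, with replicate 1 the highest library and replicates 2 and 3 inside the WT range. For Rora the log2 change was 0.16 (SE 0.26, limma adjusted p 0.696), and it turned to -0.04 (SE 0.26, adjusted p 0.934) without Runx1 KO replicate 1. Annotated antisense genes overlap Eomes and Rora, and the sources used here do not say whether counting used the strand.

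Levels of different genes were set side by side as normalised reads per kb of annotated exon. In WT, Gzmb was highest at 224 per kb, from 193 to 271 in the 3 libraries. Klrd1 (61.6 per kb), Gzma (61.1), Ncr1 (49.1) and Klrk1 (45.2) followed, each overlapping its neighbour in this order over the libraries. Klrb1c came next at 25.9 per kb, within the spread of Ncr1 (19.3 to 70.4) but below every library of Klrk1, then Eomes (17.4), Prf1 (14.9) and Tbx21 (13.0), again with overlapping neighbours, and Rora was lowest at 5.93, from 4.25 to 6.97. In Runx1 KO replicate 3 the order differed, with Klrk1 highest at 23.1 per kb and Gzmb and Tbx21 lowest at 2.08 and 2.00. All annotated exons of a gene count toward its length, which places genes with long alternative exons low.

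The genes whose pattern over the 6 libraries was nearest to the mean profile of the 10, by Euclidean distance of centred log2 values, were Pacsin1 (0.229), Klre1 (0.311), Cd160 (0.328), Ms4a4b (0.419) and Ctsw (0.428). Klre1 and Cd160 encode NK receptors and Ctsw a protease of cytotoxic lymphocytes, and none of the 5 passed the test with all libraries. Pacsin1, an adaptor of membrane trafficking best known from neurons, had 88.0, 77.7 and 87.3 normalised reads in WT and 95.2, 22.8 and 14.9 in Runx1 KO. Replicate 1 was again with WT. Of the 10 genes themselves, Prf1 (0.636) and Eomes (0.655) lay nearest to their mean profile and Rora (2.50) and Gzmb (3.73) farthest.

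Of 27 further NK receptor genes, 22 were tested, and 10 fell and 0 rose in limma, with a median log2 change of -1.64; edgeR also called 10 lower and 0 higher, and at an unadjusted p under 0.05 limma had 13 lower and 0 higher, beside 19.3% and 18.4% of all tested genes. Over all tested genes limma called 11.3% lower and 10.6% higher at the adjusted threshold. The list had 16 calls, all lower, without Runx1 KO replicate 1, beside 12.4% of all tested genes lower. It had 6 lower and 1 higher without Runx1 KO replicate 3 (5.75% lower). There were 5, 5 and 4 calls without Runx1 KO replicate 2, WT replicate 2 and WT replicate 3 (4.65%, 7.75% and 7.46% lower). The largest changes were those of Klri2, a lectin-like receptor (-3.93, SE 0.80), and of the Ly49 receptor genes Klra1 (-3.66, SE 0.92), Klra9 (-2.95, SE 0.58) and Klra8 (-2.94, SE 0.51). These 4 and Klra4, which was also called, were under 10 normalised reads in every Runx1 KO library. They passed the filter on low values through WT alone. A gene let in that way could be called only lower, so these calls give no separate support for a fall. Klra8 passed whichever of the 6 libraries was left out. Klri2 missed the threshold without WT replicate 2 (adjusted p 0.0567 in limma) and Klra9 without WT replicate 2 or 3 (0.0513 and 0.0506). Klra1 passed with all libraries (0.0321) but, with a library left out, only without WT replicate 2 or Runx1 KO replicate 1 (0.0486 and 0.0387).

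These 4 receptor genes, picked for the largest changes with all libraries, were low in Runx1 KO replicate 1 as well. Klra8 had 10.9, 33.3 and 40.3 normalised reads in WT and 3.14, 1.98 and 1.99 in Runx1 KO replicates 1 to 3. Klri2 had 31.7, 55.5 and 38.4 in WT and 1.05, 0 and 8.95 in Runx1 KO. All Runx1 KO libraries were below all WT libraries for each of the 4. Klra17, singled out after its values were seen, had 205, 125 and 173 normalised reads in WT and 315, 101 and 32.8 in Runx1 KO, so Ly49 genes did not all follow one order in replicate 1. Ly49 genes are near-copies of each other, and how reads that match several of them were counted is not given in the sources used here, so each of their values is uncertain.

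**Figure D3:**
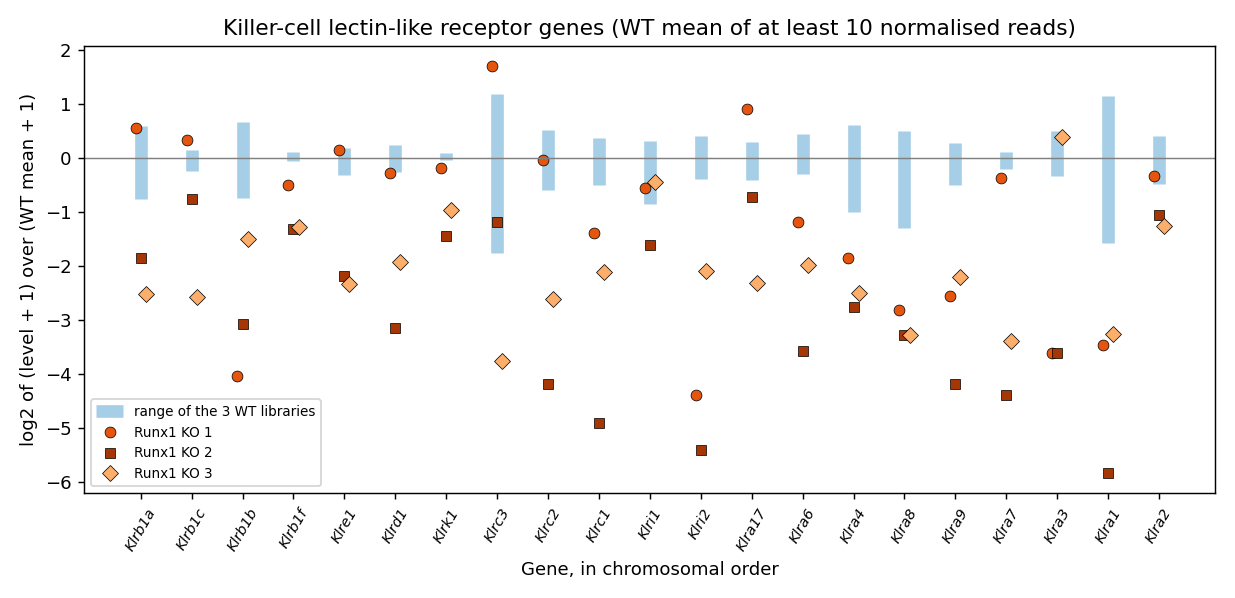
Killer-cell lectin-like receptor genes with a WT mean of at least 10 normalised reads, in chromosomal order on chromosome 6 (horizontal axis), as log2 of (level + 1) over (WT mean + 1) (vertical axis); bars span the 3 WT libraries and symbols are the Runx1 KO libraries. Runx1 KO replicate 1 (circles) lies inside or above the WT bar for Klrb1a, Klrb1c, Klre1, Klrc3, Klrc2, Klri1, Klra17 and Klra2. Among the others it is far below the bar for Klrb1b, Klri2, Klra8, Klra9, Klra3 and Klra1.

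Klrb1c, Klrd1 and Klrk1 belong to this receptor cluster, which spans 2.64 Mb of chromosome 6 with 22 listed receptor genes, 17 of them tested. All 17 had negative log2 changes and 7 of them passed, beside 11.3% of all tested genes called lower. Those 7 are among the NK receptor calls given above, so they are not further calls. Without Runx1 KO replicate 1, 14 of 19 tested passed, all lower, beside 12.4%. Runx1 KO replicates 2 and 3 were each below all WT libraries for 17 of the 17, and replicate 1 for 11. Over all tested genes these shares were 35.6%, 36.3% and 34.6% for replicates 2, 3 and 1.

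Of 15 listed genes of the killing machinery beyond the 10, 14 were tested, and 2 fell and 2 rose in limma, with a median log2 change of -0.23. This is near the shares over all tested genes, 11.3% lower and 10.6% higher, so the called genes are given singly. Without Runx1 KO replicate 1, 5 fell and 2 rose, beside 12.4% of all tested genes lower. Nkg7, a granule membrane protein gene, fell from 5840 ± 593 to 4125 ± 358 normalised reads (SD, n = 3; log2 change -0.50, SE 0.09). Rab27a, whose GTPase docks granules at the membrane, fell by 0.37 (SE 0.07) on the log2 scale, but not without Runx1 KO replicate 2 or 3 (adjusted p 0.0551 and 0.0552 in limma). Serpinb9, whose product inhibits granzyme B, rose from 254 ± 32.0 to 497 ± 31.0 (log2 change 0.97, SE 0.12), opposite in direction to Gzmb. Tnfsf10, the gene of the death ligand TRAIL, rose from 491 ± 27.1 to 991 ± 158 (log2 change 1.00, SE 0.13). Both rising genes were higher in all 3 Runx1 KO libraries than in any WT library. Nkg7 stood far above each of the 10 genes in WT, and which cells the reads of these called genes came from was not tested.

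Among 14 adaptors and kinases of NK receptors, 5 fell and 1 rose in limma, with a median log2 change of -0.76. The same test called 11.3% of all tested genes lower and 10.6% higher, so 1 rise in 14 is not above that share. There were 9 falls and 1 rise without Runx1 KO replicate 1, beside 12.4% of all tested genes lower. Sh2d1b1, an adaptor gene of SLAM family receptors, fell from 379 ± 64.5 to 89.1 ± 27.2 normalised reads (SD, n = 3; log2 change -2.11, SE 0.24). Of the signalling chains through which NKp46 and NKG2D work, not all passed. Cd247, the CD3ζ chain that serves NKp46 and the T cell receptor, did not (log2 change -0.52, SE 0.56, limma adjusted p 0.533, chosen after its values were seen), with 69.3, 42.4 and 39.3 normalised reads in WT and 79.5, 29.7 and 15.9 in Runx1 KO. Fcer1g, another chain that pairs with NKp46, fell by 1.32 (SE 0.19), and Tyrobp (DAP12) by 0.85 (SE 0.18), which missed the threshold without Runx1 KO replicate 2 or 3 (adjusted p 0.0732 and 0.0657 in limma). Hcst (DAP10), the partner of NKG2D, fell by 0.67 (SE 0.19, adjusted p 0.0437 in limma), but edgeR gave an adjusted p of 0.0507, and once any library was left out it passed only without Runx1 KO replicate 1 (0.0220). Lat, a scaffold of T cell and mast cell signalling, rose by 0.98 (SE 0.18). Fcer1g and Tyrobp are also made by myeloid and mast cells.

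Of 20 further transcription factor genes of NK and innate lymphoid cells, 18 were tested, and 6 fell and 1 rose in limma, with a median log2 change of -0.85. In limma 11.3% of all tested genes fell and 10.6% rose, so 1 rise in 18 is not above that share. Without Runx1 KO replicate 1, 9 fell and 1 rose, beside 12.4% of all tested genes lower. Ets1, which NK cell development needs, had 4693, 3154 and 3176 normalised reads in WT and 1046, 613 and 547 in Runx1 KO (log2 change -2.35, SE 0.26). All 3 Runx1 KO libraries were low, replicate 1 included. Ikzf3, the gene of the lymphoid factor Aiolos, fell by 3.91 (SE 0.68; -4.60 without Runx1 KO replicate 1), Bhlhe40, a regulator of cytokine production, by 2.15 (SE 0.38), and Bach2, a repressor of lymphocyte effector genes, by 2.38 (SE 0.53). Bach2 missed the threshold without WT replicate 3 or Runx1 KO replicate 2 or 3 (adjusted p 0.0553, 0.0808 and 0.0597 in limma). Runx3, the gene of a RUNX factor prominent in NK cells, rose from 2597 ± 378 to 4044 ± 228 (SD, n = 3; log2 change 0.65, SE 0.11). Ikzf3, Bach2 and Ets1 are also expressed in B cells. The sort holds mainly progenitors, and which cells the reads of Runx3 came from was not tested.

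Of 19 listed genes of cytokines and cytokine receptors, 18 were tested, and 5 fell and 3 rose in limma, with a median log2 change of -0.55. Beside these counts, 11.3% of all tested genes fell and 10.6% rose. Without Runx1 KO replicate 1, 10 fell and 3 rose, beside 12.4% of all tested genes lower. Il2ra, the inducible chain of the IL-2 receptor, had 591, 102 and 205 normalised reads in WT and 24.1, 4.96 and 0.995 in Runx1 KO (log2 change -5.12, SE 0.98; -6.08 without Runx1 KO replicate 1), and missed the threshold without Runx1 KO replicate 2 (adjusted p 0.0530 in limma). The IL-18 receptor genes Il18r1 and Il18rap fell by 3.37 (SE 0.60; -3.98 without Runx1 KO replicate 1) and 1.91 (SE 0.31). Il7r, the receptor gene for the lymphoid growth factor IL-7, fell by 2.15 (SE 0.58). With a library left out, Il7r passed only without WT replicate 2 or Runx1 KO replicate 1 (adjusted p 0.0327 and 0.0146 in limma). Within WT, Il2ra and Il7r were highest in replicate 1 and lowest in replicate 2, as was the sum of the B-lymphoid markers given below. Like that sum, both genes were below every WT library in all 3 Runx1 KO libraries, replicate 1 included. Which cells the reads of Il2ra and Il7r came from was not tested, so their falls cannot be assigned to NK or innate lymphoid cells. Il12rb1, Il1rl1 (the IL-33 receptor) and Il15ra rose by 1.80 (SE 0.23), 1.15 (SE 0.17) and 0.58 (SE 0.10). Il2rb, the chain shared by the IL-2 and IL-15 receptors on which NK cells depend, was singled out after its values were seen. It had 691, 609 and 803 normalised reads in WT and 847, 145 and 97.5 in Runx1 KO (log2 change -1.60, SE 0.73, limma adjusted p 0.155), and as for Eomes and Tbx21 replicate 1 was the highest of all 6 libraries.

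Markers of other cells that the sort could hold were measured beside the 10 genes. T-cell markers followed the same order: the sum of 13 was 2207, 1476 and 1496 normalised reads in WT and 1635, 438 and 450 in Runx1 KO replicates 1 to 3. With all libraries 1 of the 13 fell in limma (Cd6), beside 11.3% of all tested genes. Without Runx1 KO replicate 1, where 12.4% of all tested genes were called lower, 12 of the 13 markers fell. Of those most abundant, Cd4 had 407 ± 76.4 normalised reads in WT and 249 ± 96.7 in Runx1 KO, Thy1 389 ± 132 and 143 ± 112, and Cd28 148 ± 55.2 and 51.7 ± 42.2 (SD, n = 3). The 10 cytotoxic genes summed to 86.6%, 27.6% and 27.3% of the WT mean in Runx1 KO replicates 1 to 3. Gzmb and Klrk1, with WT means of 322 and 325 normalised reads, weigh most in that sum. A list of 6 NK markers (Ncr1, Klrb1c, Klrd1, Eomes, Klrc1 and Itga2) summed to 125%, 53.3% and 34.1%. Its sum in replicate 1, 559 normalised reads, was above every WT library (410 to 501). The NK markers outside the 10, Klrc1 and Itga2, went different ways. Klrc1, the NKG2A receptor gene, had 76.2, 60.5 and 41.2 normalised reads in WT and 22.0, 0.991 and 12.9 in Runx1 KO. Itga2, the integrin gene of the DX5 antigen, which other blood cells carry too, had 89.0, 74.7 and 86.3 in WT and 167, 151 and 84.5 in Runx1 KO. Neither passed in limma with all libraries (adjusted p 0.0586 and 0.137), and Klrc1 did without Runx1 KO replicate 1 (0.0268). No T-cell marker was at 0 in any library. The part of T cells in the levels of genes that both cell types use was not tested.

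**Figure D4:**
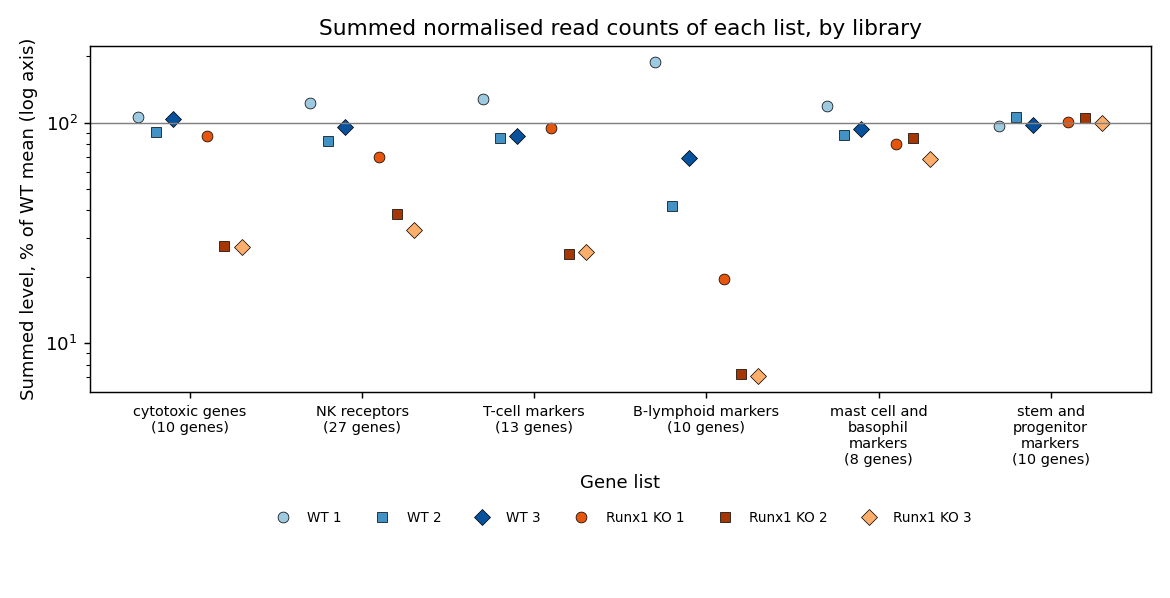
Summed normalised read counts of each gene list in each library, as a percentage of the mean of the 3 WT libraries (vertical log axis). The cytotoxic genes and T-cell markers are at 86.6% and 94.7% of the WT mean in Runx1 KO replicate 1. In replicates 2 and 3 they are at 25.4% to 27.6% of it. B-lymphoid markers are low in all 3 Runx1 KO libraries. The sum of the stem and progenitor markers is level, although 6 of the 10 rose and 1 fell in limma.

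B-lymphoid markers, unlike these, were low in replicate 1 as well. They summed to 19.5%, 7.29% and 7.09% of the WT mean in Runx1 KO replicates 1 to 3, with a wide spread in WT (6530 to 29411 normalised reads), and 7 of the 10 fell in limma, 9 of 10 without Runx1 KO replicate 1. Mast cell and basophil markers summed to 80.1%, 85.5% and 68.5%, and 5 of 7 tested fell, with or without replicate 1. Their median log2 change was -2.48 and the lowest -9.26, while 2 had positive changes. The sum therefore does not show the size of the falls. Stem and progenitor markers summed to 101%, 105% and 99.5%. Of the 10, 6 rose and 1 fell, again with or without replicate 1, and their median log2 change was 0.50. Over all tested genes limma called 11.3% lower and 10.6% higher, and 12.4% lower without Runx1 KO replicate 1.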

How the data were processed

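Poly-A RNA of 3 WT and 3 Runx1 KO libraries was measured, with stranded kits per the labels' protocols. The submitters' processing notes name HISAT2, HTSeq 0.9.1, mm10 and GRCm38; the annotation, the strand setting and the treatment of reads shared between genes are not given in the sources used here. The deposited values are a signal, gene read counts that the authors scaled by the size factor of the library, as read from the values: 100% of them were whole multiples of 1 step in each file (tolerance 0.001). These multiples, called recovered reads, totalled 23297526 to 26793380 per library, and the floor of 3 reads was 2.88 to 3.14 normalised reads, for counting error only since reads carry no molecular identifiers. Genes with a total under 10 reads are not listed. Symbols and positions came from GENCODE M21 (GRCm38), promoter windows from RefSeq (GRCm38.p6).

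The values were analysed as log2(value + 1) with limma 3.58.1 in R 4.3.3, two-sided, with the group as the only term and Benjamini-Hochberg adjustment over 15410 genes that passed the edgeR filterByExpr filter (minimum count 10, minimum total 15), leaving out 4687. The pseudocount of 1 understates the change of low genes. The script was tested on simulated data. Exact permutation of 3 against 3 libraries reaches at best a two-sided 0.1 and is not given. Alternatives were edgeR 4.0.16 and DESeq2 1.42.0 on recovered reads, other scalings, filters and pseudocounts, a replicate block, and leaving out each library. Named were all 10 members, Runx1, Kit, up to 4 called genes per direction of each of 5 lists by size of change, the 3 most abundant of each marker list (here those of T cells) and the 5 nearest patterns. Members and lists were chosen with earlier results of these data known.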

Additional observations from a re-analysis of the deposited data

How the results depend on the processing

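With all libraries kept, 106 of 109 alternative values of the 10 genes kept their direction and their side of the threshold; Tbx21 was not tested under a mean CPM of at least 1. The 3 exceptions came from the replicate block: with it limma called 3 of the 10 (Gzma at an adjusted p of 0.0439, Gzmb at 0.00914, Klrk1 at 0.0409) and edgeR called 2 (Klrk1 at 0.0485), while calls over all genes were 3843. The labels do not say whether same-numbered libraries were paired. Deviations of same-numbered libraries correlated at 0.29, 0.13 and -0.01. The first of these was the highest of all pairs, but Runx1 KO replicate 3 correlated best with WT replicate 2 (0.23). With so few libraries these correlations cannot decide whether the numbers mark pairs. The mean CPM filter left 5 calls among 13 NK receptor genes tested, against 10 among 22.

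With a library left out, calls ran from 0 to 8 for the 10 genes, 4 to 16 for NK receptors, 3 to 7 for the killing machinery, 4 to 10 for adaptors, 5 to 10 for factors, 6 to 13 for cytokines and 1367 to 3597 for all genes, against 3370 with all 6. Rora changed sign without WT replicate 2 (-0.064) and without Runx1 KO replicate 1 (-0.035). The cause was not tested. Where levels are a few reads, as for Gzmb, Tbx21 and Gzma in Runx1 KO replicates 2 and 3, counting error limits the size of a change.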
